A study of Homo sapiens with 12 samples.

Results

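The transcriptional response of RCC4 cells to silencing of ATF4 alone was taken from 6 of the 12 arrays of the series. They are 3 arrays titled as ATF-silenced cells, called siATF4 here, and 3 arrays of the non-targeting control siRNA (siNT). RCC4, an established human cell line, derives from a clear cell carcinoma of the kidney. The members were chosen by their labels, and no measured value entered the choice. Expression of 11963 genes was compared, each gene being the mean of its probe sets that carry exactly 1 gene symbol.

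All cultures, controls included, received 40 pmol of siRNA with a lipid transfection reagent and were collected after 72 h. How that amount was divided between both siRNAs in siMESH1+siATF4 is not stated. siNT was the AllStars negative control, siATF4 a Dharmacon reagent of a type sold as a pool of siRNAs against 1 gene, and siMESH1 a single Dharmacon siRNA. A second pair of groups, siMESH1 and siMESH1+siATF4, also with 3 arrays each, received the ATF4 reagent on a MESH1-silenced background and is used here only for comparison. The labels call the 3 arrays of a group biological replicates. A single ATF4 reagent was used, so effects of lower ATF4 and effects of the reagent on other transcripts cannot be told apart.

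ATF4 is a basic leucine zipper transcription factor of the integrated stress response. Phosphorylation of the initiation factor eIF2 lowers general protein synthesis but lets ATF4 mRNA be translated, and ATF4 then binds composite C/EBP-ATF response elements with a partner and turns on genes for amino acid synthesis, amino acid uptake and tRNA charging. The deposited values are log2 signals relative to the siNT mean, so they give differences between groups and no absolute level. For this reason the renal identity of the cells could not be checked by marker level on these arrays. In this bulk RNA, fewer expressing cells and less RNA per cell cannot be told apart.

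ATF4 itself served as a check of the label for the ATF4 reagent only. Its signal lay at -2.29, -2.33 and -2.30 in the 3 siATF4 arrays and between -0.10 and 0.10 in the siNT arrays, without overlap. The difference was -2.31 (SE 0.07, n = 3 per group, limma adjusted p = 8.2e-10), a 4.95-fold fall read by 1 probe set. The titles of these arrays say ATF without a number, and each siATF4 array carried a fall of ATF4. In siMESH1+siATF4 it was at -2.32 against siNT, so ATF4 cannot tell the single from the double silencing. The level of MESH1 was not examined here.

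In all, 780 genes passed both thresholds, an adjusted p under 0.05 and a log2 difference of at least 0.5, which is 6.52% of the genes tested. Of these 298 were higher (2.49%) and 482 lower (4.03%) in siATF4. Falls were the larger changes, with 146 genes lower and 24 higher by at least 1 on the log2 scale. The median of the called falls was -0.80 and that of the called rises 0.63, beside a median of 0.02 over all genes. The siATF4 and siNT arrays did not overlap for 779 of the 780 called genes, whereas they did not overlap for 40.1% of all genes. The thresholds, applied to the same arrays, favour such separation, so it is no further evidence for the calls.

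The scale on which the arrays are centred moved these counts. When the arrays were centred on 11 classic housekeeping genes, the median over all genes went from 0.02 to 0.168, and 681 genes were higher and 324 lower. That list itself had a mean of -0.147 in siATF4, and 2 of its genes, PGK1 (-0.61) and YWHAZ (-0.61), were called lower. The 18 probe sets of the hybridisation spike-ins, RNA of bacterial and phage origin added before hybridisation, lay at 0.31, 0.28 and 0.15 in siATF4 and between -0.04 and 0.07 in siNT. Their mean difference was 0.247, with p = 0.1 in an exact permutation test (two-sided), a value that 3 arrays against 3 cannot go below, and an adjusted p of 0.15 over 3 quality measures. For ACTB, the signal of the 3' control probe set less that of the 5' one, a measure of RNA integrity, was -0.293 in siATF4 (SD 0.082, n = 3, exact permutation p = 0.1, adjusted p = 0.15). That of GAPDH was -0.09 (SD 0.091, n = 3, exact permutation p = 0.2, adjusted p = 0.2). The part of these quality measures in the results was not tested.

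SPARC and LY96 had the largest rises. SPARC, a collagen-binding matricellular glycoprotein, lay at 2.45, 2.44 and 2.29 in siATF4 and between -0.25 and 0.31 in siNT, a 5.26-fold rise (2.39 ± 0.11, SE, adjusted p = 1.5e-08). LY96, which encodes the MD-2 coreceptor that lets TLR4 recognise lipopolysaccharide, lay at 2.12, 2.44 and 2.21 against -0.35 to 0.31, a 4.78-fold rise (2.26 ± 0.15, adjusted p = 1.7e-07). The 2 genes were the only rises above 2 on the log2 scale. Their siNT arrays had the largest SDs among the 15 largest rises, 0.286 and 0.335, yet stayed far below the siATF4 arrays.

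A pair of phospholipase A genes came next. PLA2G4C, a cytosolic phospholipase A2, was at 1.79, 1.91 and 1.99 in siATF4, and PLA1A, which removes the first acyl chain of phosphatidylserine, at 1.59, 1.95 and 1.61. The fits gave 1.90 ± 0.06 (SE) for PLA2G4C and 1.72 ± 0.09 for PLA1A. These were the 2 members called of the 24 measured genes of phospholipases and prostaglandin synthesis, whose median was 0.049, beside 6.52% of all genes called. PLPP3, a phospholipid phosphatase of the cell surface, also rose (1.24 ± 0.07), in all 3 of its probe sets.

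The other genes among the 15 largest rises were CNN1, which encodes the actin-binding calponin of smooth muscle (1.63), the receptor phosphatase PTPRR (1.52), DENND5B (1.49), filaggrin (FLG, 1.49), EVI2A (1.46), interferon-inducible IFI27 (1.29), CEMIP2 (1.29), the glycoprotein hormone stanniocalcin 2 (STC2, 1.27), the autophagy ubiquitin-like protein MAP1LC3C (1.19) and the mitochondrial OGDHL (1.19). The 15 largest rises and falls were picked among called genes whose siATF4 and siNT arrays do not overlap, so their separation is a condition of the choice. MAP1LC3C was the least even, with 1 siATF4 array at 0.78 and the others at 1.37 and above.

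**Figure D1:**
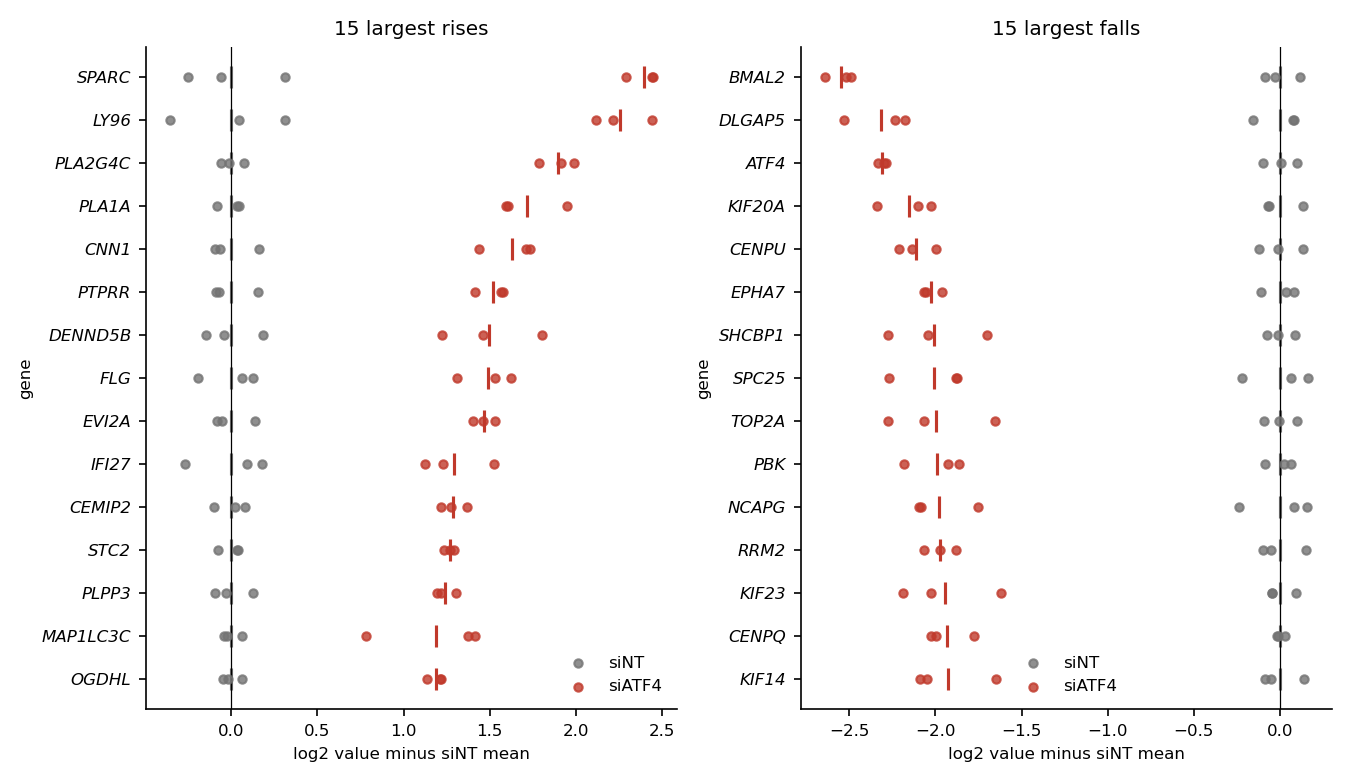
Value of every siATF4 array (red points) and every siNT array (grey points) for the 15 largest rises and the 15 largest falls, as log2 signal minus the siNT mean on the horizontal axis, with a tick at the mean of the 3 arrays. Separation of the 2 groups was a condition for choosing the 30 genes, which run from SPARC at 2.39 to BMAL2 at -2.55.

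The largest fall was not ATF4 but BMAL2, a bHLH-PAS partner of CLOCK. BMAL2 lay at -2.52, -2.64 and -2.49 in siATF4 and between -0.09 and 0.12 in siNT, a 5.86-fold fall (-2.55 ± 0.10, SE, adjusted p = 3.8e-09). EPHA7, a receptor tyrosine kinase for ephrins, lay at -2.07, -1.96 and -2.05 against -0.11 to 0.08, a 4.08-fold fall (-2.03 ± 0.17, adjusted p = 1.7e-06). Both genes were read by 1 probe set. The remaining 12 of the 15 largest falls were genes of cell division and DNA synthesis. They were DLGAP5 (-2.31), KIF20A (-2.15), CENPU (-2.11), SHCBP1 (-2.01), SPC25 (-2.01), TOP2A, PBK (-1.99), NCAPG (-1.98), RRM2 (-1.98), KIF23 (-1.95), CENPQ (-1.93) and KIF14 (-1.93).

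The genes that ATF4 is best known for had smaller changes than the 15 largest falls. In the 3 lists of amino acid synthesis, amino acid transport and tRNA charging 9 of 54 genes fell, beside 4.03% of all genes called lower. Of 19 measured genes of amino acid and one-carbon synthesis 3 fell and 0 rose. ASNS, asparagine synthetase, lay at -1.14, -1.24 and -1.20 in siATF4 and between -0.17 and 0.08 in siNT, a 2.29-fold fall (-1.19 ± 0.07, SE, adjusted p = 6.6e-08). MTHFD2, the mitochondrial folate enzyme, fell by 0.88 (SE 0.05, adjusted p = 6.4e-08). PSAT1, which makes phosphoserine in the serine pathway, was lower at -0.52 but close to the fold minimum. Its value was -0.369 with housekeeping centring, -0.482 with centring on 9 constitutive genes, -0.468 without siATF4 replicate 1 and -0.46 without siNT replicate 2, none of them called.

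The other 16 genes of the list were not called, and among them GOT1 (-0.35), OAT (-0.26) and SHMT2 (-0.22) had the smallest adjusted p. CTH, the transsulfuration enzyme that makes cysteine, had a value of -0.19 (SE 0.09, adjusted p = 0.13). The median of the list was -0.134, and 16 of its 19 members were below 0. With housekeeping centring the median was 0.013, so the direction of the list as a whole depended on the scale, whereas ASNS and MTHFD2 kept their calls under all 13 alternatives with the same thresholds.

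Among 17 amino acid transporters 2 fell, 0 rose and the median was -0.036 (0.112 with housekeeping centring). SLC38A1, a glutamine carrier, lay at -0.70, -0.72 and -0.74 in siATF4, and SLC1A4, a carrier of serine and alanine, at -0.76, -0.64 and -0.60, while the siNT arrays of both stayed between -0.04 and 0.06. The fitted falls were -0.72 ± 0.05 and -0.67 ± 0.06 (SE). SLC7A5, the light chain of the leucine carrier, had a value in the other direction (0.42, below the fold minimum), as did SLC36A1 (0.40), and SLC7A1 was at -0.37.

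Among 18 aminoacyl-tRNA synthetases and tRNA-charging partners 4 fell and 0 rose. YARS1 (tyrosine) was at -0.75, -0.70 and -0.68, IARS1 (isoleucine) at -0.69, -0.70 and -0.63 and TARS1 (threonine) at -0.66, -0.71 and -0.64, with siNT arrays between -0.03 and 0.06. The tRNA export factor XPOT was called as well (-0.56), but not with housekeeping centring (-0.415). AARS1 (-0.36), CARS1 (-0.31) and NARS1 (-0.29) did not reach the fold minimum. The list had a median of -0.261, and its median stayed below 0 with housekeeping centring (-0.114).

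**Figure D2:**
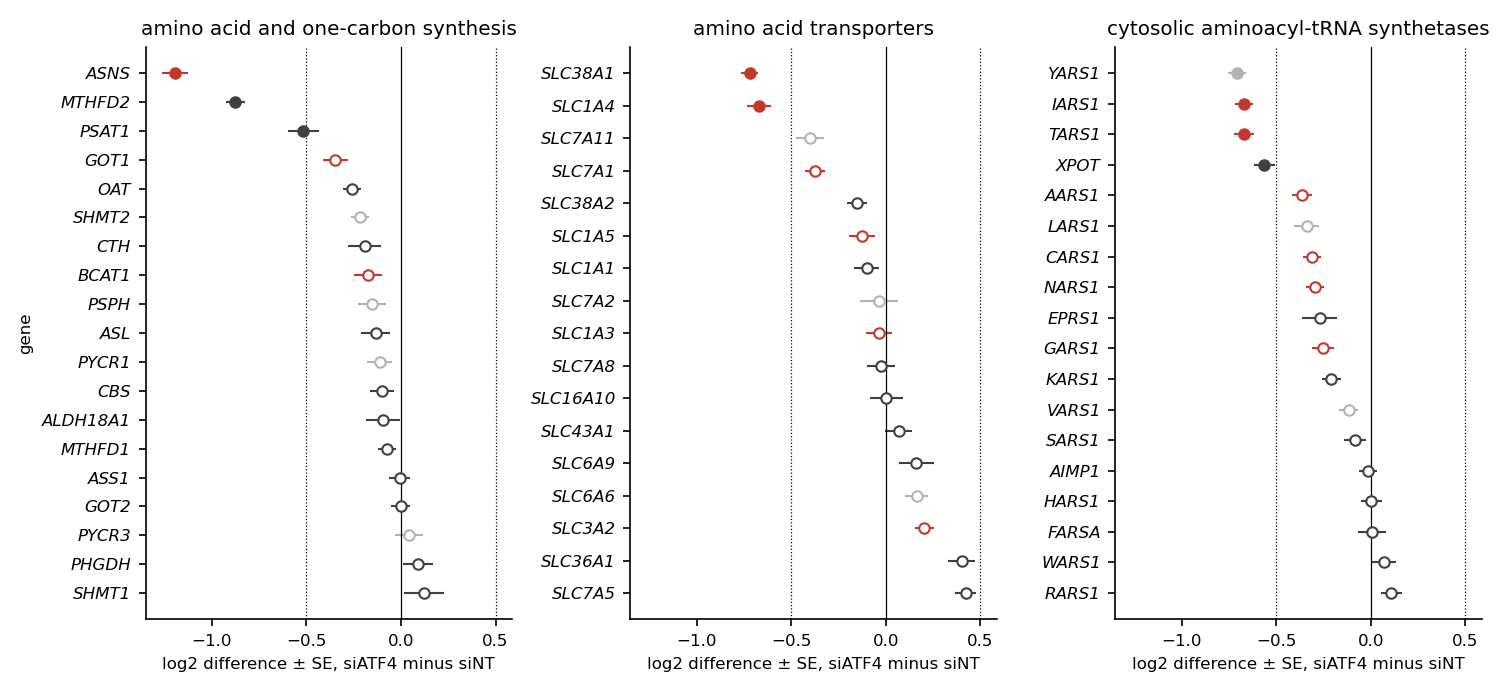
Difference between siATF4 and siNT (horizontal axis, log2, bars for the SE of the fit over 12 arrays) for each gene of the 3 lists tied to amino acid supply. Filled points are called, open points are not, red marks genes with TGATGNAA in a promoter window, dark grey genes without it and light grey genes with no window, and dotted lines mark the fold minimum of 0.5. ASNS at -1.19 is the largest fall, and 9 of the 54 genes are called, all lower.

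The promoters of these genes were searched for the core of the C/EBP-ATF element, TGATGNAA, on either strand in RefSeq windows of 250 bases before to 50 after each start (build GRCh38.p14; genes with several annotated starts have several windows). The letters occurred in 15 of the 44 genes of the 3 lists that had a window (34.1%), in 3.4% of the 9563 genes tested that had one, in 4% of the called falls and in 5.1% of the called rises. They were present in 5 of the 8 called genes of these lists with a window, shown here with the element in capitals, read along the gene from 5' to 3', so that the match can be read beside the called falls of these lists. In IARS1, SLC1A4 and TARS1 the element lies on the opposite strand, so its reverse complement is printed.
ASNS, chr7:97872458-97872487, minus strand: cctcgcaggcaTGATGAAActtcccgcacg
SLC38A1, chr12:46266502-46266531, minus strand: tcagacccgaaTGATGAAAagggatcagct
IARS1, chr9:92293692-92293721, minus strand: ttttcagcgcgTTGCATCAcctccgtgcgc
SLC1A4, chr2:64989381-64989410, plus strand: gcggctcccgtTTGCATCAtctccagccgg
TARS1, chr5:33440956-33440985, plus strand: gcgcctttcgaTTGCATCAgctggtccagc
The first base of the element lay at -68 in ASNS, -13 in IARS1, -7 in SLC1A4, -4 in SLC38A1 and 3 in TARS1, counted from the annotated start as 1. The 15 genes with the element had a median difference of -0.348, with 14 of them below 0 and 5 called lower, and the 29 genes without it had a median of -0.024, with 18 below 0 and 3 called lower (MTHFD2, PSAT1 and XPOT). These are descriptions of 44 chosen genes with no test. In the bases before the start alone the element was found in 8 of the 44 genes (18.2%) and in 3% of the genes tested.

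The regulators of the stress response around ATF4 did not fall together. Of 21 measured genes 1 rose and 2 fell, beside 2.49% of all genes called higher and 4.03% called lower. The falls were ATF4 itself and NUPR1, a stress-induced chromatin protein. NUPR1 lay at -0.97, -0.99 and -1.11 in siATF4 and between -0.08 and 0.05 in siNT (-1.02 ± 0.07, SE, adjusted p = 1.7e-07). GADD45A, a growth arrest and DNA damage protein, was the gene that rose (0.56 ± 0.05). DDIT3, which encodes the proapoptotic factor CHOP, had a value of 0.46 (SE 0.06, adjusted p = 0.00012), PPP1R15A, which directs dephosphorylation of eIF2, 0.47, CEBPB 0.38 and ATF3, which ATF4 is known to induce, 0.29 (SE 0.08, adjusted p = 0.012). All of these were above 0 yet under the fold minimum. The median of the list was 0.049.

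The stress-induced secreted factors were mixed, beside 2.49% of all genes called higher and 4.03% called lower. Of 7 genes STC2 and GDF15 were higher and STC1 lower. STC2 lay at 1.29, 1.27 and 1.24 in siATF4 against -0.08 to 0.04 in siNT (1.27 ± 0.05, SE, adjusted p = 3.6e-09). GDF15, a TGF-beta family hormone of stressed cells (0.51), and the paralog STC1 (-0.51) stood at the fold minimum. GDF15 was not called with array median centring (0.493) or without siATF4 replicate 2 (0.481), siATF4 replicate 3 (0.496) or siNT replicate 1 (0.46). STC1 was not called with housekeeping centring (-0.36) or with the constitutive list (-0.474), nor without siATF4 replicate 2 (-0.488), siATF4 replicate 3 (-0.498) or siNT replicate 2 (-0.467). FGF21 (-0.07), ANGPTL4 (0.06) and VEGFA (-0.12) had values near 0.

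The other arms of the endoplasmic reticulum stress response gave 1 call in 24 genes, beside 6.52% of all genes called. DERL2, a factor of ER-associated degradation, was lower (-0.50) and lost its call with housekeeping centring (-0.357), with the constitutive list (-0.47), without siATF4 replicate 1 (-0.496) and without siNT replicate 2 (-0.469). XBP1, the transcription factor of the IRE1 arm, had a value of -0.37, the cochaperone DNAJB9 0.46 and HERPUD1 0.08. Among 18 translation factors limma called 0, with 11 at an unadjusted p under 0.05 and 0 by the methods' t-test, and EIF4EBP1, the inhibitor of cap binding, stood at -0.35. The median of the ER list was 0.074 and that of the translation factors -0.151.

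Genes of cystine uptake, glutathione and ferroptosis gave 1 call in 25, beside 6.52% of all genes called. FTL, the light chain of ferritin, was higher (0.53 ± 0.06) through 1 of its 2 probe sets, and it lost the call without siNT replicate 1 (0.495). GPX4, which reduces lipid peroxides, was at 0.38, the polyamine acetyltransferase SAT1 at 0.39 and GCLM, a subunit of the glutathione-making ligase, at -0.34. In the NADPH and NRF2 list limma called 0 of 20 genes (12 at an unadjusted p under 0.05, 0 by the methods' t-test), with the aldo-keto reductase AKR1C3 at -0.48 and NADK, the NAD kinase, at -0.21. ACLY, which makes cytosolic acetyl-CoA, was at -0.35 (SE 0.05).

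Genes of cell division made up the broadest fall. Of 64 measured genes of the mitotic spindle, kinetochore and division, 60 fell and 0 rose, beside 4.03% of all genes called lower. The list had a median of -1.434 and 63 of its members were below 0. Kinesins, kinetochore proteins, mitotic cyclins and the anaphase regulators all took part. The 4 genes not called were CENPA (-0.36), CDC25A (-0.47), INCENP (-0.35) and SPC24 (0.18), the last named after its value was seen. In all, 57 of the 60 kept the call under each of the 13 alternatives.

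DLGAP5, a spindle microtubule protein, lay at -2.18, -2.53 and -2.24 in siATF4 and between -0.16 and 0.08 in siNT (-2.31 ± 0.10, SE, adjusted p = 1.1e-08). KIF20A, the kinesin of the central spindle, lay at -2.02, -2.34 and -2.10, and TOP2A, the topoisomerase that untangles sister chromatids, at -1.65, -2.28 and -2.07. In TOP2A as in SHCBP1, KIF23 and KIF14, siATF4 replicate 1 was the least lowered array and replicate 2 the most, and all 3 arrays were far below siNT. SPC25, of the NDC80 kinetochore complex, fell by 2.01 and its partner NDC80 by 1.43. MAD2L1, the spindle checkpoint protein, fell by 1.81 (SE 0.09).

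Among 17 genes of condensin and cohesin, the rings that compact and hold sister chromatids, 7 fell and 0 rose. The 7 were all condensin subunits, namely NCAPG (-1.98), NCAPH (-1.33), NCAPG2 (-1.22), SMC2 (-1.05), NCAPD2 (-1.05), NCAPD3 (-0.83) and SMC4 (-0.81). Each of the 7 kept its call under the 13 alternatives, and NCAPH2 (-0.11) was the condensin subunit that was not called. SMC4 and NCAPH2 were named after their values were seen. NCAPG lay at -1.75, -2.08 and -2.10 in siATF4 against -0.24 to 0.16 in siNT. The cohesin genes with the smallest adjusted p were RAD21 (-0.34), PDS5B (-0.28, whose probe sets disagree in sign) and STAG1 (-0.22).

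DNA replication followed, with 44 of 55 genes lower, 0 higher and a median of -0.909. RRM2, the small subunit of ribonucleotide reductase that supplies deoxynucleotides, lay at -1.88, -2.07 and -1.97 in siATF4 and between -0.10 and 0.15 in siNT (-1.98 ± 0.10, SE, adjusted p = 2.5e-08), a 3.93-fold fall in both of its probe sets. The origin factor MCM10 fell by 1.90, CDC45 and GINS2 of the replicative helicase by 1.59 and 1.53, the origin recognition subunit ORC6 by 1.45 and the helicase subunit MCM5 by 1.35. The falls thus covered origin licensing, helicase and nucleotide supply. RPA1 (-0.46), RPA2 (-0.36) and POLE3 (-0.49) were lower in value without reaching the fold minimum.

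DNA repair and the G1 machinery changed in part. Of 24 repair and checkpoint genes 12 fell and 0 rose (median -0.482), led by RAD51AP1 (-1.88), EXO1 (-1.64), FANCI (-1.44), RAD54L (-1.16), BLM (-0.98) and BRCA1 (-0.96), most of which act in homologous recombination. Of 29 genes of G1 cyclins, CDKs, inhibitors, E2F and RB 6 fell and 1 rose, with a median of -0.139 that became 0.009 with housekeeping centring. CCNE2 (-1.57) and CCNE1 (-0.82), the cyclins of S phase entry, CDKN3 (-1.55), the repressor E2F8 (-1.18), the pocket protein RBL1 (-0.94) and cyclin D1 (CCND1, -0.62) fell. CCND1 lost its call with housekeeping centring (-0.476). E2F1 had a value of -0.47 (SE 0.10, adjusted p = 0.0027), and CDK2 of -0.21 with probe sets of opposite sign, neither called.

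The inhibitor CDKN1A (p21) was the gene of that list that rose. It lay at 0.79, 0.87 and 0.85 in siATF4 and between -0.03 and 0.02 in siNT (0.83 ± 0.05, SE, adjusted p = 2.1e-07). Beside 2.49% of all genes called higher and 4.03% called lower, 5 of 18 p53 targets rose and 1 fell. Beside CDKN1A and GADD45A these were the quinone oxidoreductase TP53I3 (0.91), the phosphatase PPM1D (0.77) and the repair factor XPC (0.65). PERP, a desmosomal membrane protein, was the one that fell, at -1.38, -1.56 and -1.67 against -0.09 to 0.09 (-1.53 ± 0.08). The 6 calls held under all 13 alternatives, and the median of the list was 0.132.

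The promoters of the mitotic genes were searched for 2 elements known from G2 and M phase genes, the cell cycle homology region TTTGAA and the NF-Y box CCAAT, both on either strand. TTTGAA occurred in 36 of 54 mitotic genes with a window (66.7%), beside 15.6% of the genes tested, 6.2% of the replication genes, 20% of the called rises, 27.3% of the called falls and 35.7% of the amino acid transporters. CCAAT occurred in 81.5% of the mitotic genes and in 44.2% of the genes tested, beside 59.3% of the called falls, 69.6% of the repair genes and 73.3% of the genes of amino acid synthesis. In the bases before the start alone the shares of TTTGAA were 48.1% and 13.9%. The element is shown in capitals for the 4 mitotic genes with the largest falls that hold it before the start. In DLGAP5 and TOP2A it lies on the opposite strand and so reads reversed, and in TOP2A and KIF23 the reverse NF-Y box stands in small letters beside it.
DLGAP5, chr14:55191677-55191706, minus strand: cctttcaatcaaTTCAAAtatcgcacggag
SPC25, chr2:168890651-168890680, minus strand: ttaTTTGAAgccgataaatgacttgtcgtg
TOP2A, chr17:40418030-40418059, minus strand: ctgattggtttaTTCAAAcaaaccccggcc
KIF23, chr15:69414282-69414311, plus strand: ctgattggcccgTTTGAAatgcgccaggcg
Within the mitotic list the 36 genes with TTTGAA had a median of -1.576 with 34 called, and the 18 genes without it a median of -1.413 with 16 called.

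**Figure D3:**
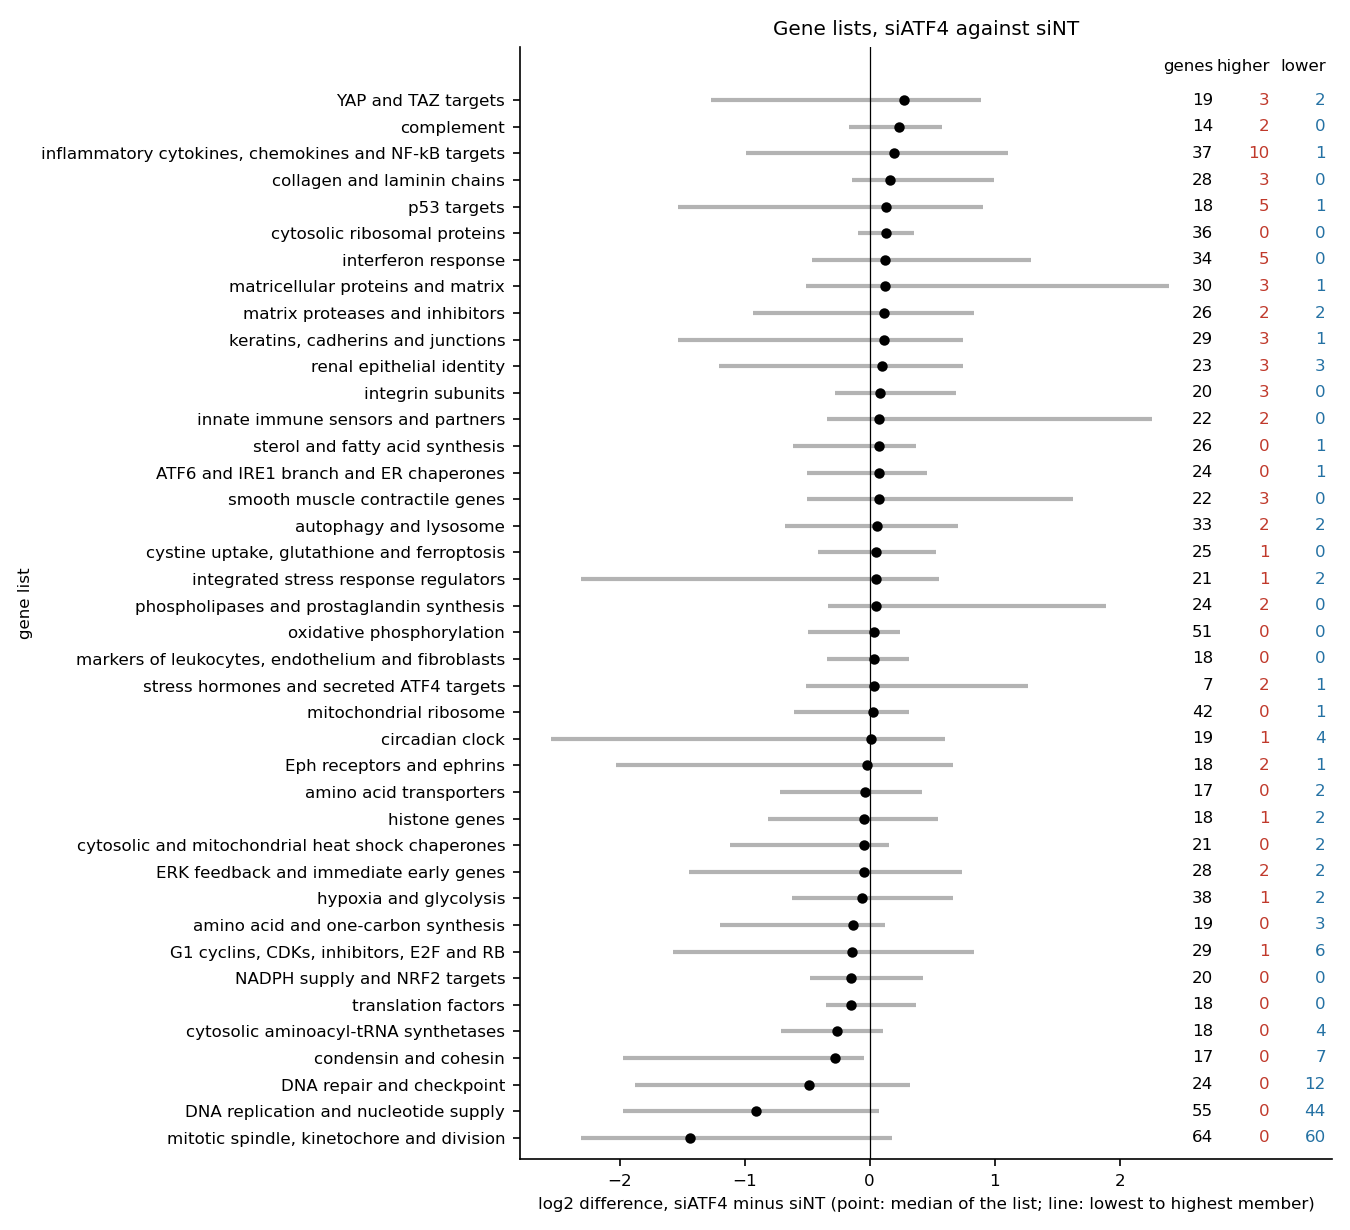
Difference between siATF4 and siNT (horizontal axis, log2) for 40 gene lists, with a point at the median of the measured members and a line from the lowest to the highest member, and at the right the number of genes measured, called higher and called lower. The mitotic list stands at -1.434 with 60 of 64 genes lower, and the medians of the lists outside mitosis, condensin and cohesin, replication, repair and G1 control lie between -0.261 and 0.274.

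By count, inflammatory genes held the most rises among the 40 lists, which differ in size (5 of 18 p53 targets also rose). Of 37 measured cytokines, chemokines and NF-kB targets 10 rose and 1 fell, beside 2.49% of all genes called higher, and the median was 0.191. The lists of YAP and TAZ targets (0.274) and of complement (0.237) had higher medians. IL6 lay at 1.09, 1.06 and 1.17 in siATF4 and between -0.05 and 0.06 in siNT (1.10 ± 0.06, SE, adjusted p = 6.8e-08). CXCL6, a neutrophil chemokine, lay at 1.07, 1.01 and 1.15 against -0.14 to 0.10 (1.08 ± 0.08). These were rises of 2.15-fold and 2.11-fold with closely grouped arrays.

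The NF-kB feedback inhibitors rose with them, TNFAIP3 (A20) by 0.88 and NFKBIA by 0.63, as did the membrane chemokine CX3CL1 (0.82) and the early response gene IER3 (0.74). The rest of the 10 were CXCL2 (0.67), LIF (0.60), CXCL1 (0.58) and IL32 (0.57). VCAM1, an adhesion molecule of the same pathway, went the other way, between -1.01 and -0.96 in siATF4 (-0.99 ± 0.04, adjusted p = 9.6e-09). All 11 calls held under the 13 alternatives. ICAM1 (0.41) and RELB (0.39) stayed under the fold minimum. NFKBIA, CXCL2, LIF, CXCL1 and IL32 lie beyond the members that the naming rule takes and were added after their values were seen.

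Beside 2.49% of all genes called higher, 2 of 22 innate sensors and partners rose and 0 fell. Beside LY96 this was IL1RAP, the accessory chain of the interleukin 1 receptor (0.96 ± 0.06, SE, adjusted p = 1.6e-07), which rose in 1 of its 2 probe sets by more than the fold minimum. TICAM1 (0.40) and MYD88 (0.30), the adaptors of Toll-like receptors, and the kinase IRAK1 (-0.34) were not called. Of 14 complement genes C1R (0.58) and C1S (0.58), the proteases of the C1 complex, rose and 0 fell. C3 was at 0.48, CLU at 0.42 and the inhibitor SERPING1 at 0.35, and 12 of the 14 genes were above 0, with a median of 0.237.

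Of 34 interferon response genes 5 rose and 0 fell, beside 2.49% of all genes called higher, with a median of 0.124. IFI27 lay at 1.23, 1.53 and 1.13 in siATF4 against -0.27 to 0.18 in siNT (1.29 ± 0.17, SE, adjusted p = 0.0001). The GTPase GBP1 (0.87) and the exonuclease ISG20 (0.63) followed. IFIT2 (0.57) lost its call without siATF4 replicate 1 (0.484) and IRF7 (0.54) without siATF4 replicate 3 (0.498). The immunoproteasome subunit PSMB8 had a value of -0.46. Most of the list, 29 genes, was therefore not called.

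Markers of leukocytes, endothelium and fibroblasts, which a pure cell line should lack, gave 0 calls by limma among 18 genes, with 5 at an unadjusted p under 0.05 and 0 by the methods' t-test with the fold minimum. The mean of their differences was between 0.027 and 0.072 in the siATF4 arrays and between -0.055 and 0.066 in the siNT arrays. The value furthest from 0 by adjusted p was lysozyme (LYZ, -0.34). The siNT arrays thus spanned nearly the whole range of the siATF4 means for this list.

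**Figure D4:**
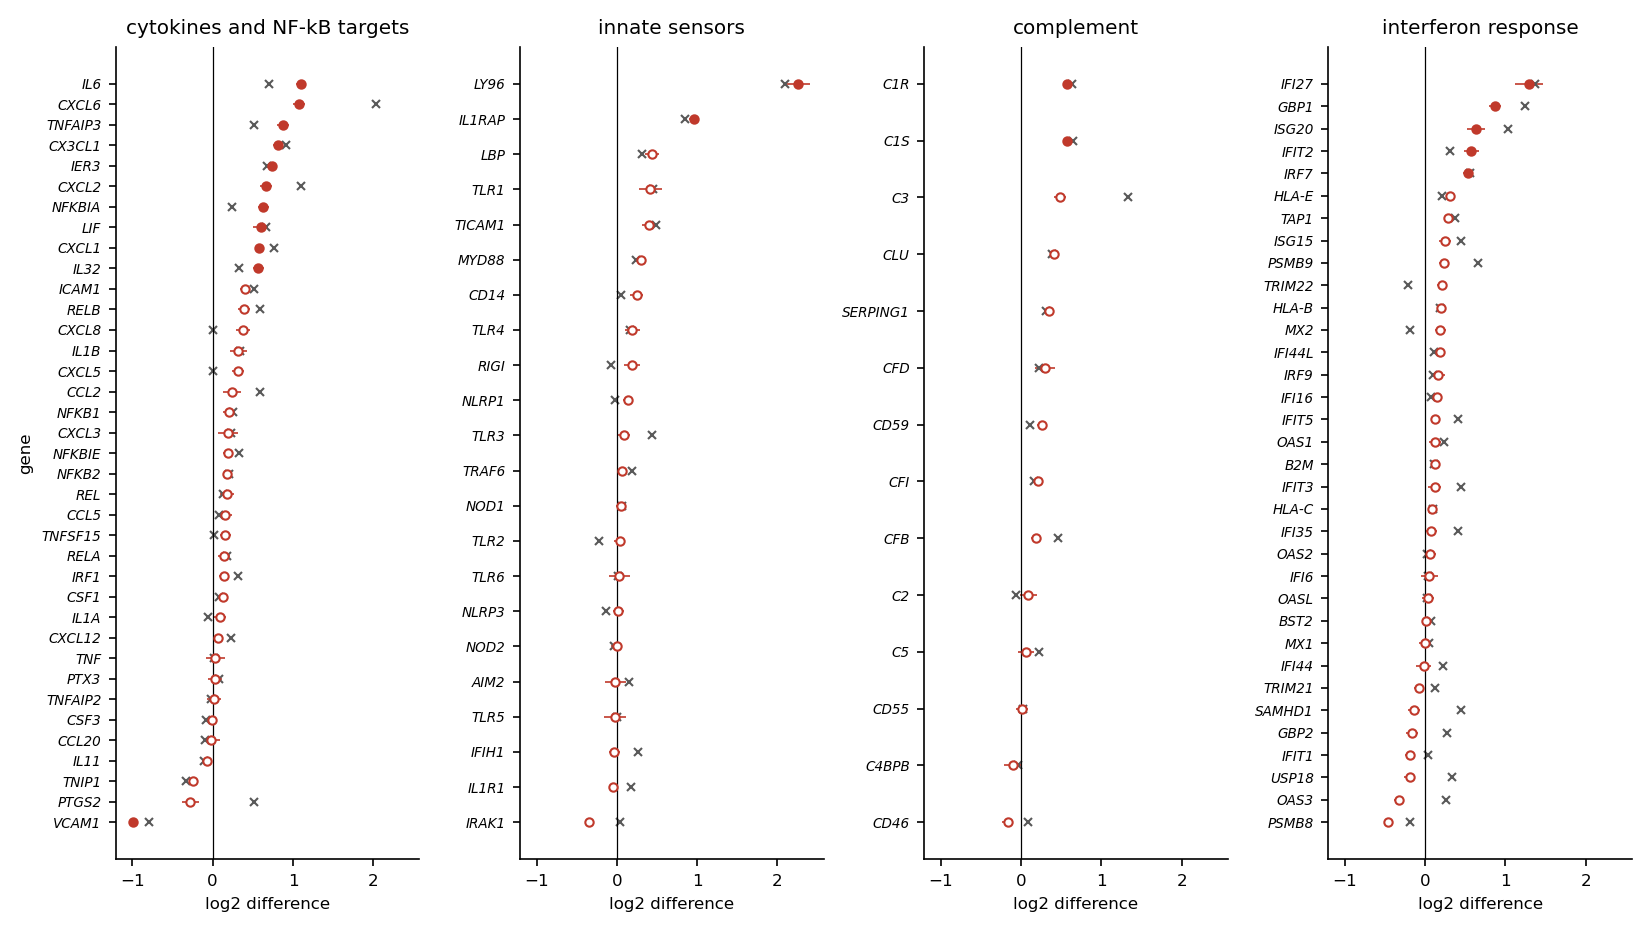
Difference between siATF4 and siNT (red points with the SE of the fit, filled where called) and between siMESH1+siATF4 and siMESH1 (grey crosses) for the genes of 4 immune lists, on a log2 horizontal axis. IL6 (1.10), LY96 (2.26), C1R (0.58) and IFI27 (1.29) lead their lists, and VCAM1 at -0.99 is the one called fall.

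Among genes of the extracellular matrix more were called higher than lower, beside 2.49% of all genes called higher and 4.03% called lower. Of 30 matricellular and matrix genes 3 rose and 1 fell (median 0.121), or 7 and 0 with housekeeping centring, and at an adjusted p under 0.05 without a fold minimum 12 were higher and 3 lower. Beside SPARC the growth factor CCN2 rose (0.89 ± 0.07, SE), and fibronectin (FN1, 0.75) rose in 5 of its 6 probe sets. FN1 was at 0.112 without the probe sets that may cross-hybridise, which ended its call. The proteoglycan versican (VCAN) was at -0.51 and lost its call with housekeeping centring (-0.362), with the constitutive list (-0.475), without siATF4 replicate 3 (-0.473) and without siNT replicate 3 (-0.471). Of 28 collagen and laminin chains 14 were higher and 0 lower at an adjusted p under 0.05 without a fold minimum, and 8 were called higher with housekeeping centring. By the rule with the fold minimum 3 rose and 0 fell, namely LAMB3 (1.00), COL16A1 (0.77) and LAMC1 (0.50). LAMC1 was not called with array median centring (0.483), without siATF4 replicate 2 (0.46) or without siNT replicate 3 (0.481).

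Proteases and adhesion receptors moved in both directions. The collagenase MMP1 fell (-0.93) and matrilysin MMP7 rose (0.84), the protease inhibitor SERPINE2 fell (-0.56) and MMP15 rose (0.51). SERPINE2 was at -0.412 with housekeeping centring. MMP15 was at 0.494 with array median centring, 0.431 without siATF4 replicate 3, 0.482 without siNT replicate 2 and 0.489 without siNT replicate 3, none of them called. Of 20 integrin subunits ITGA5 (0.69), ITGA1 (0.67) and ITGB2 (0.51) rose and 0 fell, beside 2.49% of all genes called higher. ITGB2 lost its call with array median centring (0.492) and without siATF4 replicate 2 (0.48) or 3 (0.451) or siNT replicate 2 (0.458) or 3 (0.448).

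Of 22 smooth muscle contractile genes 3 rose and 0 fell, beside 2.49% of all genes called higher, with a median of 0.071. At an adjusted p under 0.05 without a fold minimum 7 members were higher and 4 lower. SMTN was called lower with array median centring (-0.516). CALD1, whose probe sets disagree in sign, was called lower with the median of probe sets (-0.586). CNN1 lay at 1.44, 1.74 and 1.71 in siATF4 against -0.09 to 0.16 in siNT (1.63 ± 0.13, SE, adjusted p = 1.3e-06), and the myosin light chain MYL9 (0.63) and the second calponin CNN2 (0.60) rose less. Of 19 targets of the coactivators YAP and TAZ 3 rose and 2 fell, with a median of 0.274. CCN2, the ectonucleotidase NT5E (0.70) and FJX1 (0.55) were higher. Tissue factor (F3) lay at -1.20, -1.18 and -1.42 (-1.27 ± 0.08) and CRIM1 at -0.97, so the list held called members on both sides.

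Epithelial genes were likewise split, beside 2.49% of all genes called higher and 4.03% called lower. Of 29 keratins, cadherins and junction genes KRT19 (0.75), EPCAM (0.60) and claudin 4 (CLDN4, 0.57) rose and PERP fell. Of 23 genes of renal epithelial identity 3 rose and 3 fell, KRT19, EPCAM and the organic cation carrier SLC22A2 (0.61) against the phosphate and urate carrier SLC17A3 (-1.21 ± 0.09, SE), VCAM1 and the phosphate carrier SLC34A2 (-0.69). SLC17A3 lay at -1.23, -1.23 and -1.17 in siATF4. The renal factors PAX2 (0.32) and the cadherin CDH6 (-0.34) were not called. Of 18 Eph receptors and ephrins EFNA1 (0.67) and EPHA4 (0.62) rose and EPHA7 fell, and EPHA4 lost its call without siATF4 replicate 1 (0.465).

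Among 19 clock genes 4 fell and 1 rose, beside 4.03% of all genes called lower and 2.49% called higher. Beside BMAL2 the falls were TIMELESS (-0.55), PER3 (-0.55) and CRY1 (-0.54), and the output factor HLF rose (0.60). BMAL2 and HLF held under all 13 alternatives. TIMELESS was at -0.406 with housekeeping centring and at -0.186 without probe sets that may cross-hybridise. PER3 was at -0.398 with housekeeping centring and -0.44 without siNT replicate 2, and CRY1 at -0.388 with housekeeping centring and -0.491 without siATF4 replicate 2. The median of the list was 0.014.

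Genes downstream of ERK gave 2 rises and 2 falls in 28, beside 2.49% of all genes called higher and 4.03% called lower. EGR1, an immediate early transcription factor, lay at -1.55, -1.46 and -1.33 in siATF4 and between -0.19 and 0.12 in siNT (-1.45 ± 0.08, SE, adjusted p = 6.6e-08). DUSP6, the ERK phosphatase, fell as well (-0.73), while IER3 and SPRY2, an inhibitor of the same pathway, rose (0.74 and 0.70). The list median was -0.048 and 0.10 with housekeeping centring.

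Lists of chaperones, organelles and metabolism differed in their calls, beside 6.52% of all genes called (2.49% higher, 4.03% lower). HSPD1, the mitochondrial chaperonin, lay at -1.03, -1.18 and -1.13 in siATF4 (-1.11 ± 0.05, SE, adjusted p = 1.8e-08), and HSP90AB1 fell by 0.62 of 21 heat shock genes, the latter not with housekeeping centring (-0.473). Of 33 autophagy and lysosome genes LAMP1 (0.71) and ATG14 (0.59) rose and ULK2 (-0.67) and GABARAPL2 (-0.61) fell. ATG14 lost its call without siNT replicate 3 (0.496), ULK2 without probe sets that may cross-hybridise (-0.327) and GABARAPL2 with housekeeping centring (-0.461). Of 18 histone genes the variant H2AZ1 (-0.82) and MACROH2A1 (-0.54) fell and H2BC12, whose sequence is close to that of other H2B genes, rose (0.55). MACROH2A1 was at -0.393 with housekeeping centring and -0.289 without probe sets that may cross-hybridise.

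In the hypoxia and glycolysis list 1 of 38 genes rose, the glucose carrier SLC2A3 (0.66), and 2 fell, CCND1 and PGK1. PGK1 lost its call with housekeeping centring (-0.465), a scale of which it is a part. INSIG1, the sterol sensor that holds back SREBP, was the one fall in 26 genes of sterol and fatty acid synthesis (-0.62, and -0.469 with housekeeping centring), and MRPL13 the one in 42 genes of the mitochondrial ribosome (-0.60, and -0.455). Of 51 oxidative phosphorylation genes limma called 0, with 17 at an unadjusted p under 0.05. Of 36 cytosolic ribosomal protein genes it also called 0, with 19 at an unadjusted p under 0.05, and the methods' t-test with the fold minimum called 0 in both lists.

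The same ATF4 reagent on the MESH1-silenced background, compared as siMESH1+siATF4 against siMESH1, shares no array with the comparison above. There 409 genes were higher (3.42%) and 321 lower (2.68%), or 262 and 549 with housekeeping centring. ATF4 fell by 2.30 (SE 0.07). Of the 298 rises in siATF4 against siNT 162 (54.4%) were also called higher on that background and 0 lower, and these 162 were 39.6% of the 409. Of the 482 falls 174 (36.1%) were also called lower and 1 higher, and these 174 were 54.2% of the 321. In sign alone 288 of the 298 rises and 417 of the 482 falls went the same way. ATAD2, an ATPase of chromatin, was the gene that turned, from -1.68 ± 0.08 against siNT to 0.57 on the siMESH1 background (adjusted p = 0.00017). Relative to the siNT mean, its arrays lay at -2.90, -2.63 and -2.78 in siMESH1 and at -2.22, -2.29 and -2.08 in siMESH1+siATF4. With housekeeping centring the ATAD2 difference on the siMESH1 background was 0.46 and not called. KCNJ13, a rise against siNT, was then called lower on that background (-0.601), as with the constitutive list (-0.532). KCNJ13 here and WARS1 below were named after their values were seen.

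The called falls had a median nearer 0 on that background. The median of the 482 falls was -0.80 against siNT and -0.341 with siMESH1 (-0.652 and -0.45 with housekeeping centring). That of the 298 rises was 0.632 and 0.565 (0.779 and 0.456). The test of the difference itself is the interaction, the ATF4 difference with siMESH1 minus that without it, which called 516 genes (4.31%), 414 above and 102 below 0. That split depended on the scale, with 196 above and 1261 below 0 under housekeeping centring and 319 and 190 under the constitutive list. It used the same siATF4 and siNT arrays that chose the genes, so its direction among them is not independent. With that limit 234 of the 482 falls had a called interaction, 232 of them towards 0, as had 39 of the 298 rises, 26 towards 0. Under housekeeping centring 151 falls and 106 rises had a called interaction towards 0.

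Called falls among genes of cell division had a called interaction more often than the other falls. Of the 129 falls in the 5 lists of mitosis, condensin and cohesin, replication, repair and G1 control, 23 (17.8%) were called lower on the siMESH1 background and 118 (91.5%) had a called interaction towards 0. Of the other 353 falls 151 (42.8%) were called lower there and 114 (32.3%) had such an interaction. The 129 falls had a median of -1.218 against siNT and -0.26 on the siMESH1 background, the other 353 of -0.701 and -0.432. A larger fall leaves more room for an interaction past the fold minimum, so these shares start from unlike sizes. The mitotic list had a median of -1.434 without and -0.354 with siMESH1, and the replication list of -0.909 and -0.091. The interaction was called above 0 for 59 of 64 mitotic genes and 41 of 55 replication genes, and for 52 and 31 with housekeeping centring. In siMESH1 against siNT, which shares the siNT arrays, the medians of these lists were -1.692 and -1.071.

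Single genes showed the contrast. RRM2 was -1.98 against siNT and 0.05 on the siMESH1 background, with an interaction of 2.03 (adjusted p = 5.1e-06). Relative to siNT, RRM2 was at -3.48 in siMESH1 and at -3.43 in siMESH1+siATF4. ATAD2 had the largest interaction of the called genes, 2.25 (adjusted p = 6.3e-07), NDC80 had 1.90, SHCBP1 1.71, NCAPG 1.71 and MAD2L1 1.66. By contrast ATF4 had an interaction of 0.01, SPARC of 0.20, LY96 of -0.17, EPHA7 of 0.42 and SLC38A1 of 0.003, none of them called. SPARC was at 2.59 on the siMESH1 background, LY96 at 2.09, EPHA7 at -1.61, PERP at -1.85, CNN1 at 2.12 and SLC38A1 at -0.72.

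Of the 9 amino acid genes that fell against siNT, 4 were also called lower on the siMESH1 background. They were ASNS (-0.84), IARS1 (-0.65), YARS1 (-0.59) and SLC38A1 (-0.72), and NUPR1 of the stress genes was called too (-0.78). XPOT (-0.49), TARS1 (-0.46) and PSAT1 (-0.44) missed the fold minimum there. MTHFD2 (-0.18) and SLC1A4 (-0.03) were not called there, and their interactions of 0.70 and 0.64 were. By list 1 of 19 synthesis genes was lower and 0 higher, 1 of 17 transporters lower and 1 higher (SLC36A1, 0.87), and 2 of 18 genes of the synthetase list lower and 1 higher (WARS1, 0.67), beside 2.68% of all genes called lower and 3.42% called higher. Of the 4 immune lists the inflammatory one had 12 members higher and 1 lower on that background (10 and 1 against siNT; 7 and 1, and 13 and 1, with housekeeping centring), with CXCL6 at 2.04 (interaction 0.96, adjusted p = 9.5e-05) and IL6 at 0.70 (interaction -0.40, under the fold minimum). C3 was called there, at 1.33, with an interaction of 0.85. The p53 targets had 5 rises and 1 fall against siNT, and 0 called higher and 2 lower on the siMESH1 background, PERP (-1.85) and ZMAT3 (-0.95). TP53I3 went from 0.91 to -0.13 (interaction -1.04, adjusted p = 9.9e-06). Relative to siNT, however, TP53I3 was at 1.10 in siMESH1 and at 0.97 in siMESH1+siATF4. In the same order CDKN1A was at 0.60 and 0.86, PPM1D at 0.75 and 1.01, GADD45A at 0.27 and 0.58 and XPC at 0.155 and 0.55. All 5 rises were thus above siNT in the double silencing as well.

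**Figure D5:**
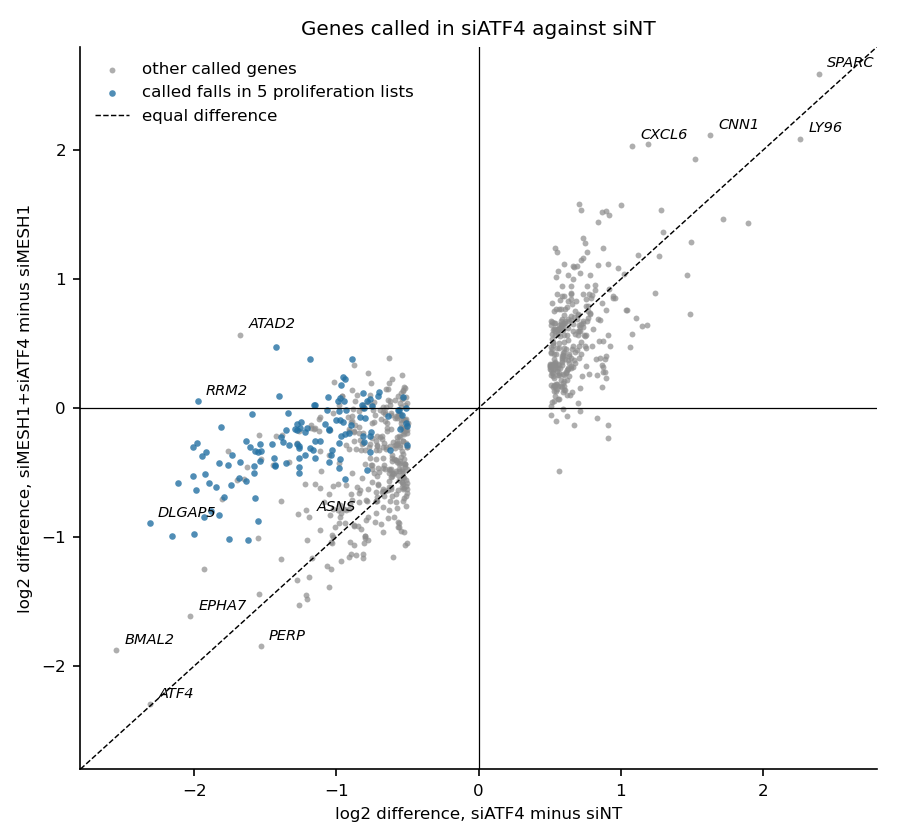
Difference made by the ATF4 reagent on the siMESH1 background (vertical axis, log2) against that without it (horizontal axis, log2) for the 780 genes called in siATF4 against siNT, with falls of the 5 proliferation lists in blue and a dashed line of equal difference. SPARC, LY96, ATF4 and PERP lie near the line, and the blue points gather near 0 on the vertical axis, with RRM2 at 0.05.

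A direct comparison of the 2 single silencings, siATF4 minus siMESH1, called 568 genes higher (4.75%) and 468 lower (3.91%) in siATF4. The split was 302 and 1026 with housekeeping centring and 404 and 699 with the constitutive list. It shares the siATF4 arrays with the comparison against siNT, so the values stand side by side and no overlap is drawn from them. Mitotic genes had a median of 0.142 in this contrast, with 8 of 64 members higher and 1 lower, and a median of -0.041 with housekeeping centring, so their direction depended on the scale. DLGAP5 was at 0.13 and KIF20A at 0.11, neither called, while RRM2 was higher in siATF4 by 1.51 (adjusted p = 2e-07).

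ATF4 was lower in siATF4 than in siMESH1 by 2.28, and the stress regulator NUPR1 by 1.00. The amino acid lists did not move 1 way in this contrast. Of 19 genes of amino acid and one-carbon synthesis 2 were lower in siATF4, ASNS by 0.84 and CTH by 0.89 (adjusted p = 5.4e-06), and 0 were higher. Of 17 amino acid transporters 2 were higher, SLC7A5 (0.89) and SLC36A1 (0.81), and 0 lower, and of 18 genes of the tRNA synthetase list 1 was higher, WARS1 (0.57), and 0 lower. MTHFD2 had a difference of 0.38 and SLC1A4 of -0.07, neither of them called. PERP (-1.85), BMAL2 (-1.63), EPHA7 (-1.52) and CENPQ (-1.13) were lower too. SPARC (2.12), LY96 (1.83), STC2 (1.60), LAMB3 (2.47) and CXCL6 (1.80) were higher in siATF4. These differences also hold changes made by siMESH1. In siMESH1 against siNT, SPARC was at 0.27, LY96 at 0.43, STC2 at -0.34, LAMB3 at -1.47 and CXCL6 at -0.72. ASNS was at -0.35 and CTH at 0.70 in that comparison, and CTH was not called in siATF4 against siNT (-0.19). The inflammatory list had 11 members higher and 1 lower in siATF4 than in siMESH1, or 5 and 2 with housekeeping centring, and the interferon list had 10 and 0. In the stress genes DDIT3 was 0.59 higher in siATF4 and ATF3 had a difference of -0.07 (adjusted p = 0.55).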

How the data were processed

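RNA of RCC4 cells was hybridised to Affymetrix Human Genome arrays, 3 per group. Per the labels, the authors made log2 values with RMA in Affymetrix Expression Console, and the deposited log2 table holds them relative to the siNT mean of each probe set. For the software, versions were not given in the sources used here. Because levels were removed, no filter on low signal was possible, and the number of arrays limits the precision.

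Of 22277 probe sets, 19064 carried exactly 1 gene symbol in the platform annotation, of which 19052 were matched by Entrez identifier. Control probe sets (62), those with several symbols (1043) and those with none (2108) were left out. Probe sets were averaged to 11963 genes, 7653 of them with 1 probe set.

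limma 3.58.1 (R 4.3.3; lmFit and eBayes) was fitted to all 12 arrays with 1 mean for each group, without a block, and with 8 residual and 4.32 prior degrees of freedom. Calls needed an absolute log2 difference of 0.5 or more and p under 0.05 after Benjamini-Hochberg adjustment across the 11963 genes. The fit was tested on simulated data of 11963 genes for siATF4 against siNT, where 99% of changes of 1 and 100% of changes of 2 were recovered. Named genes are ATF4, genes the study names, the 15 largest rises and falls with separated arrays, up to 6 called and 3 uncalled members of each list, and 6 interactions. The members and the 40 lists were chosen with earlier results of these data known. Promoters are RefSeq windows of GRCh38.p14, found for 9563 genes. Alternatives were the centring, the probe sets used, the arrays in the fit, the fold minimum, the methods' t-test, a replicate block and leaving out each array.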

Additional observations from a re-analysis of the deposited data

Results flagged for a closer look

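The ATF4 reagent differed between the 2 backgrounds, by the interaction test, for 234 of the called falls and 39 of the called rises. The test shares the siATF4 and siNT arrays that chose these genes, so its direction among them is not independent. Values below are log2 interactions, the ATF4 difference with siMESH1 minus that without it.

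Among the largest rises the interaction was called for FLG (-0.76), MAP1LC3C (0.86) and OGDHL (-0.54). MAP1LC3C was at 1.19 against siNT and 2.05 on the siMESH1 background, and FLG at 1.49 and 0.73.

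Among the largest falls it was called for BMAL2 (0.67), CENPQ (0.69), TOP2A (1.03), KIF14 (1.08), KIF20A (1.16), PBK (1.36), DLGAP5 (1.42), SPC25 (1.48), CENPU (1.53), KIF23 (1.57), NCAPG (1.71), SHCBP1 (1.71) and RRM2 (2.03). The remaining genes with the largest interactions were MAD2L1 (1.66), NDC80 (1.90) and ATAD2 (2.25). Apart from BMAL2, the genes of these falls act in or around cell division and DNA synthesis.

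Outside the genes tested, 3151 probe sets have several symbols or none. Of these 118 passed the same thresholds in siATF4 against siNT (3.74%), 52 higher and 66 lower.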

How the results depend on the processing

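Under centring on the classic housekeeping genes the rises went from 298 to 681 and the interaction from 516 to 1457 genes. Without a fold minimum siATF4 against siNT called 3421 genes (1765 higher, 1656 lower), siMESH1+siATF4 against siMESH1 3348, the interaction 1424 and siATF4 against siMESH1 4004. With a fold minimum of 1 the counts were 170 (24 higher, 146 lower), 93, 102 and 165. The other alternatives stayed within 1.5 times the counts reported. Leaving out 1 array gave 778 to 815 genes (266 to 344 higher, 460 to 523 lower), and 737 to 759, 478 to 562 and 1037 to 1080 for the other 3 comparisons in that order. The methods' t-test with the fold minimum called 771 genes unadjusted and 721 after Benjamini-Hochberg adjustment.

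With the replicate number as a block 781 genes were called (298 higher, 483 lower) and 517 in the interaction. Same-numbered siNT and siATF4 arrays correlated by 0.069, 0.082 and 0.095 in their deviations from the group means. Arrays of different number correlated by -0.083 to -0.002, so each siATF4 array correlated most with its own number. The values were under the minimum set for pairing, and the arrays were not treated as paired. Whether same-numbered arrays share a batch was not tested. No named gene lost its call with the block.

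Of 136 named genes that were called, 108 kept the call under all 13 alternatives with the same thresholds, 28 lost it under at least 1 and 0 turned direction. Housekeeping centring ended 17 of these calls, the constitutive list 4, array medians 4 and leaving out probe sets that may cross-hybridise 4. In the other direction, 47 named genes without a call gained one under at least 1 of the 13 alternatives. Among them were DDIT3 (0.61) and C3 (0.632) with housekeeping centring. E2F1 (-0.598) and CDC25A (-0.899) gained a call without the probe sets that may cross-hybridise. The causes were not tested. A filter on low signal was not run, since the values hold no level.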
